A study of Mus musculus with 2 samples.

Results

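The miR-26 family of the mouse consists of 3 miRNA genes, Mir26a-1, Mir26a-2 and Mir26b. They were taken by gene symbol from the 2202 miRNA genes tabulated for 2 heart libraries, and all 3 were found. Each library held microRNA-seq reads, that is reads of RNA inserts below 30 nt, made from the total RNA of 1 heart. Both hearts came from female B6CASTF1/J mice aged 10 days, a first-generation cross of the C57BL/6J and CAST/EiJ strains, and the labels name no transgene, allele or agent. The labels number them as biological replicates 1 and 2, with an own biosample and animal number for each heart and 1 donor entry in common. There was 1 group (n = 2), so the data describe the level of each gene and how far the 2 hearts differed, and every test below compares these 2 libraries, not conditions.

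miRNAs are cut from a hairpin in a longer transcript into short arms, named 5p and 3p, and an arm loaded into an Argonaute protein pairs with target mRNAs mainly through its seed, bases 2 to 8. The miR-26 genes lie in introns of Ctdspl, Ctdsp2 and Ctdsp1, which encode small phosphatases that act on the C-terminal domain of RNA polymerase II and on the retinoblastoma protein. miR-26 is known as a brake on the cell cycle and as a repressor of Ezh2, the methyltransferase of the Polycomb complex, during muscle differentiation, and of Smad1 in endothelium.

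The mature sequences, from RefSeq on GRCm38.p6, show which products the 3 genes share. All 6 arms are printed 5′ to 3′ with the seed in capitals.
miR-26a-5p (from Mir26a-1 and from Mir26a-2): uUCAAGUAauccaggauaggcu
miR-26b-5p: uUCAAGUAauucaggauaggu
miR-26a-1-3p: cCUAUUCUugguuacuugcacg
miR-26a-2-3p: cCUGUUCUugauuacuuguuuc
miR-26b-3p: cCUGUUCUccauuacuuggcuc
The 5p arm of both Mir26a genes is the same 22 nt. miR-26b-5p has 21 nt and carries 2 substitutions against miR-26a-5p, C11U and C21U, with positions counted from the 5′ end of the arm and the miR-26a base given first. Both lie outside the seed, so all 3 genes share the 5p seed UCAAGUA, and no other gene among 1058 with RefSeq mature entries has it. The 3p arms differ more: miR-26a-1-3p and miR-26a-2-3p match at 16 of 22 positions, and miR-26a-2-3p and miR-26b-3p at 18 of 22. The substitution A4G separates the seed of miR-26a-1-3p from that of the other two, so by 3p seed Mir26a-2 groups with Mir26b and not with its own copy. The seed CUGUUCU also occurs in the 3p arms of Mir6932 and Mir7039, named for that seed, which had 0 counts in replicate 1 and 1 count each in replicate 2.

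The hairpins are shown whole because the counts were made per hairpin gene and do not tell the arms apart. Capitals mark the annotated arms.
Mir26a-1: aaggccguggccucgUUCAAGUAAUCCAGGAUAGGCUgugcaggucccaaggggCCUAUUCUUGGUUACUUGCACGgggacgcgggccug
Mir26a-2: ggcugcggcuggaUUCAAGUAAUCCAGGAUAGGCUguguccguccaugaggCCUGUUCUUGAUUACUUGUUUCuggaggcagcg
Mir26b: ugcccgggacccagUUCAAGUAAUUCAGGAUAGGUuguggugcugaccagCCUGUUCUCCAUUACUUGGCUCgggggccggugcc

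Each gene lies on the strand of its host. Mir26a-1 (ENSMUSG00000065513.1) is at chr9:119031796-119031885 (mm10, plus strand), in intron 5 of 7 of the principal Ctdspl transcript. Mir26a-2 (ENSMUSG00000065430.1) is at chr10:126995530-126995613, plus strand, in intron 5 of 7 of Ctdsp2. Mir26b (ENSMUSG00000065468.1) is at chr1:74394310-74394394, plus strand, in intron 4 of 6 of Ctdsp1. In each host 2 more introns follow. The hosts differ in size: the hairpin starts 105343 bases after the transcript start in Ctdspl, 16813 in Ctdsp2 and 2801 in Ctdsp1. Mir26b sits in the shortest of the 3 introns, 564 bases, with an exon 234 bases before it and another 245 bases after it. The introns of Mir26a-2 and Mir26a-1 span 1946 and 3283 bases. None of the annotated host transcripts that span a hairpin, 3 of Ctdspl, 1 of Ctdsp2 and 2 of Ctdsp1, has an exon over it, and no gene other than the host overlaps any of the 3.

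**Figure D1:**
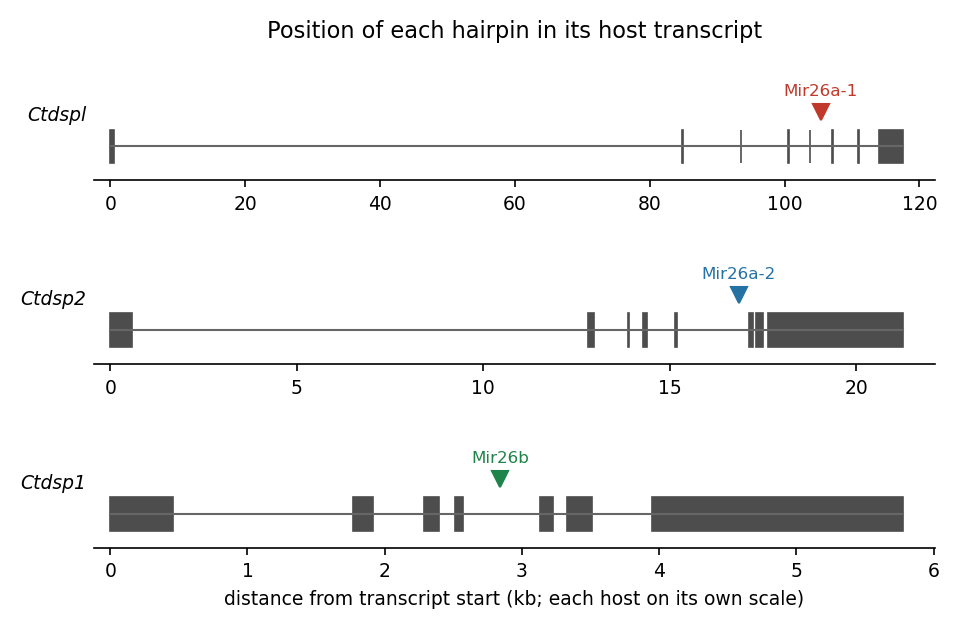
Exons (dark boxes) of the principal transcript of each host gene against the distance from its start in kb, each host on its own scale, with the hairpin marked by a triangle. Each hairpin lies in an intron with 2 more introns after it: intron 5 of 7 in Ctdspl and Ctdsp2, and intron 4 of 6 in Ctdsp1.

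How much of each hairpin a short read could identify followed from these sequences. Mir26a-1 and Mir26a-2 share an exact run of 25 nt, which is the 5p arm plus 3 bases after it. The base before the arm already differs, and the first base that differs after it is the 4th. An exact read of either copy's 5p arm therefore fits both genes unless it starts before the arm or reaches 4 bases past it. Of the 18 nt windows in the 5p arm, 0 of 5 were unique to Mir26a-1 or to Mir26a-2 among the hairpins in the tables, while all 5 windows of each 3p arm were unique. Mir26b shared at most 11 nt with Mir26a-1 and 10 nt with Mir26a-2, and all 68 of its 18 nt windows were unique. Outside the family, the longest run shared with any of 2199 other hairpins was 10 nt for Mir26a-1 and 11 nt for the other two. These counts use exact matches to miRNA hairpins only, not the genome. Of 1018 table genes with a RefSeq mature entry, 94 (9.23%) have an arm that is identical in another gene, as both Mir26a genes do.

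**Figure D2:**
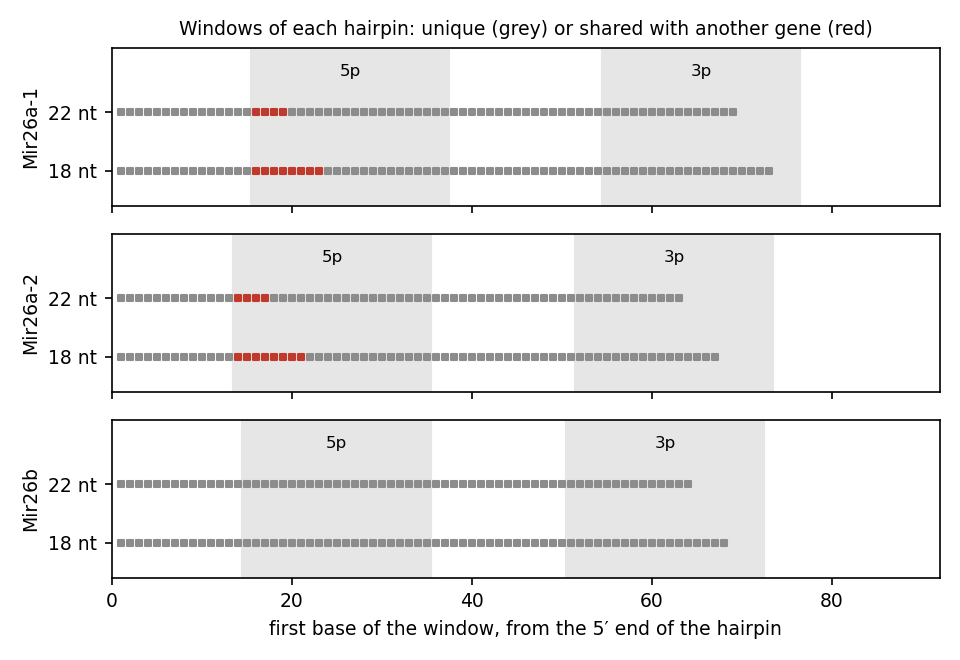
Each square is a window of 18 or 22 nt, placed by its first base along the hairpin; grey windows occur in 1 gene of the tables and red windows in another gene too, and grey bands mark the 5p and 3p arms. The red windows, 8 of 18 nt in each Mir26a gene, all start within the 5p arm, and Mir26b has none.

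Mir26b was among the most abundant miRNA genes of both hearts by counts of reads placed at a single position. Its 69238 counts in replicate 1 and 80996 in replicate 2 corresponded to 16251 CPM (exact 95% Poisson interval 16130 to 16372) and 17673 CPM (17552 to 17795). CPM scales each library to one total of counts on named genes. The values of both hearts lay close together, at 16962 ± 1006 CPM (SD, n = 2). Mir26b ranked 13th of 2202 genes by mean CPM, 13th in replicate 1 and 14th in replicate 2. It took 1.63% of the gene counts in replicate 1 (exact 95% binomial interval 1.61 to 1.64) and 1.77% in replicate 2 (1.76 to 1.78). Reads placed at more than 1 position, 38.9% and 38.0% of all reads in replicates 1 and 2, count for no gene. Rank and share are therefore those of gene counts and not of miRNA levels. In tissue RNA, fewer cells of a type and less RNA per cell cannot be told apart. Directly above it stood Mir139, at 22665 ± 487 CPM, whose range over the hearts did not overlap that of Mir26b. The ranges of Mirlet7d (rank 11, 24985 ± 14625 CPM), Mir99b (rank 14, 16362 ± 12627) and Mir22 (rank 15, 16243 ± 10439) did overlap it, and these 3 varied more between the hearts.

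Mir26a-2 was counted at a far lower level, with 401 counts in replicate 1 and 340 in replicate 2. These are 94.1 CPM (85.1 to 103.8) and 74.2 CPM (66.5 to 82.5), with a mean of 84.2 ± 14.1 CPM and rank 174. Its neighbours in that order, Mir186 and Mir345 above and Mir598 and Mir329 below, had ranges that overlapped its own, from 70.9 to 95.1 CPM together. Their order among themselves is not larger than the spread between the hearts.

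Mir26a-1, the other copy, was counted 668 times in replicate 1 but 30 times in replicate 2. Replicate 1 was high and replicate 2 low: 156.8 CPM (145.1 to 169.1) against 6.55 CPM (4.42 to 9.34), and the intervals did not come near each other. The mean of 81.7 ± 106 CPM, at rank 177, describes neither heart, since the gene ranked 143rd in replicate 1 and 293rd in replicate 2. Both values lay above the limit that a count of 0 allows (3 counts), at 0.704 and 0.655 CPM for replicates 1 and 2.

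**Figure D3:**
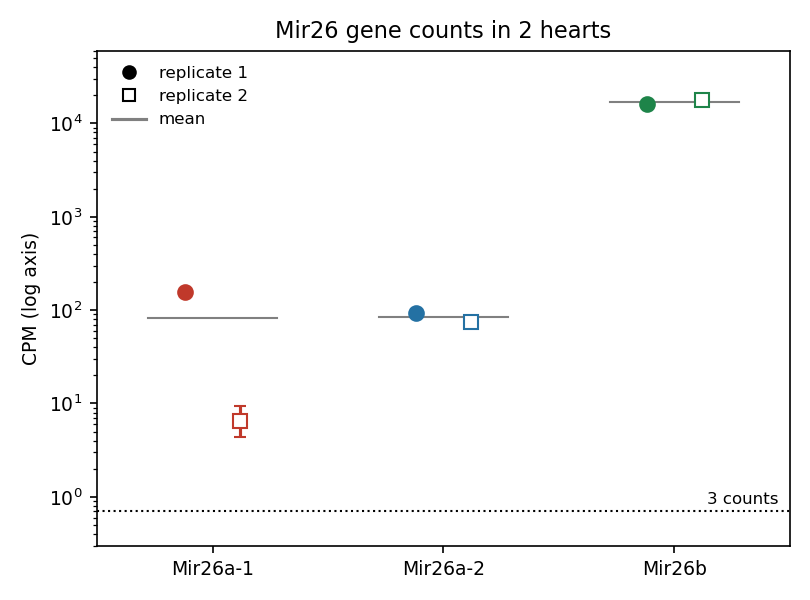
CPM on a log axis for the 3 genes, with replicate 1 as filled circles, replicate 2 as open squares, exact 95% Poisson intervals as bars (hidden where smaller than the symbol), the mean of both hearts as a grey line and the limit of 3 counts as a dotted line. The means are 16962 CPM for Mir26b and 84.2 CPM for Mir26a-2, with both hearts close to them, while Mir26a-1 is at 156.8 CPM in replicate 1 and 6.55 CPM in replicate 2.

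Within a library Mir26b therefore made up nearly all counts of the family: 98.5% (98.4 to 98.6) of 70307 in replicate 1 and 99.5% (99.5 to 99.6) of 81366 in replicate 2. The family as a whole took 1.71% ± 0.0885 of the gene counts. Mir26b exceeded Mir26a-2 by 172-fold in replicate 1 (157 to 191) and by 238-fold in replicate 2 (214 to 266). It exceeded Mir26a-1 by 103.6-fold (96.0 to 112) and by 2656-fold (1891 to 4002). These folds compare counts of reads placed at a single position. Reads placed at more than 1 position were not assigned to genes and numbered 4193785 in replicate 1 and 3872896 in replicate 2, or 38.9% and 38.0% of all reads. The shared 25 nt run applies to the Mir26a genes and not to Mir26b, and the part of the multimapping reads that came from miR-26a was not tested. Exact reads that lie within that run count for neither Mir26a gene. The counts of Mir26a-1 and Mir26a-2 leave such reads of miR-26a-5p out and are therefore uncertain as levels of miR-26a. To the extent that such reads occurred, these folds and the Mir26b share overstate miR-26b against miR-26a, and the family share leaves them out. By how much was not tested. Differences in ligation between sequences were not tested either.

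The 3 genes behaved differently between the hearts. The log2 ratio of replicate 2 over replicate 1, scaled by trimmed mean of M values (TMM), was 0.19 for Mir26b (exact 95% interval 0.17 to 0.20). It was -0.28 for Mir26a-2 (-0.49 to -0.06) and -4.49 for Mir26a-1 (-5.09 to -3.99), a 22.5-fold difference. All 3 passed an exact two-sided binomial test of the counts (Benjamini-Hochberg adjusted over 375 genes: 1.89e-138, 0.0198 and 8.10e-161). Passing was common, since 207 of the 375 genes tested (55.2%) did. Mir26b was among the 26.1% that were higher in replicate 2, and both Mir26a genes were among the 29.1% that were higher in replicate 1. The call for Mir26a-2 was lost with DESeq2 size factors, where its log2 ratio was -0.24 and its adjusted p 0.0517 (over all 6 alternatives 0.00305 to 0.0517). The test covers counting error only, and nothing in it measures the variation between animals.

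Size set the 3 apart more than the calls did. Adjusted p under 0.05 together with a difference of 2-fold or more was met by 10.7% of the tested genes, and by Mir26a-1 as the sole member. The absolute log2 ratio of Mir26a-1 was the largest of all 375 tested genes, and that of Mir26a-2 and Mir26b ranked 147th and 182nd of the 266 genes whose counts summed to at least 100. The median absolute log2 ratio of those 266 genes was 0.33, above the 0.28 of Mir26a-2 and the 0.19 of Mir26b. For Mir26b, then, the hearts differed by more than counting noise. For Mir26a-2 that depended on the scaling, since its call was lost with DESeq2 size factors. Both differences were smaller than for most genes of sufficient depth. With 2 libraries a gene's pattern is a single ratio, so likeness is weak information. The genes nearest to Mir26b were Mir328, Mir339 and Mir7083 (0.19, 0.19 and 0.17). Those nearest to Mir26a-2 were Mir1981, Mir134 and Mir503 (-0.28, -0.27 and -0.26). Among genes with 100 or more counts, those nearest to Mir26a-1 were Mir34c (-1.98), Mir669e (-1.73) and Mir376c (-1.62), the first of them 2.52 log2 units away. Differences of nearly the same size did occur: Mir301 had a log2 ratio of 3.89 in the other direction, with 59.1 CPM in replicate 1 and 839 CPM in replicate 2, and Mir669h, with fewer than 100 counts, stood at 4.93 and 0.218 CPM. Mir301 and Mir669h were named after their values were seen.

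**Figure D4:**
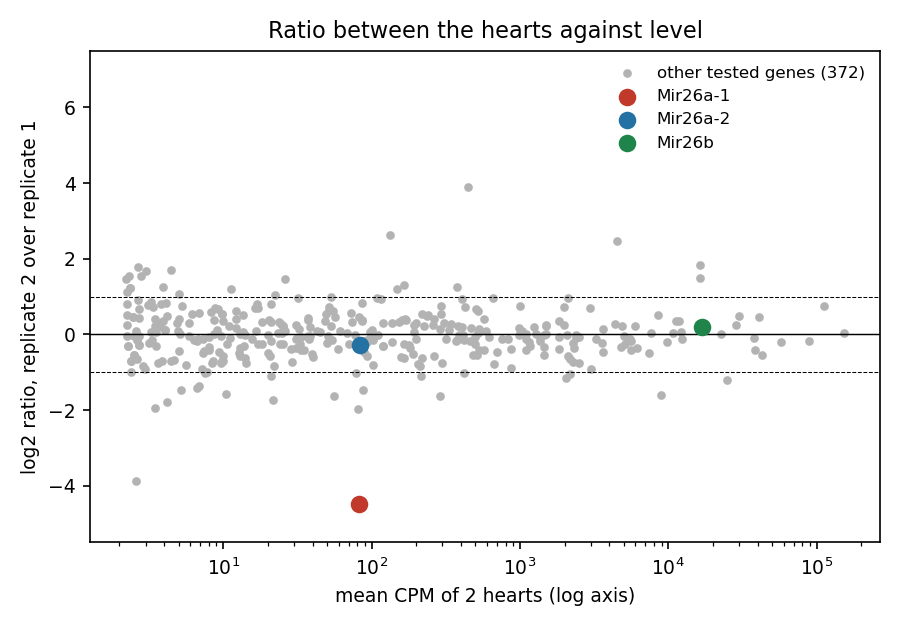
Log2 ratio of replicate 2 over replicate 1 (TMM scaled) against mean CPM on a log axis for the 375 tested genes, with the Mir26 genes in colour and dashed lines at 2-fold. Mir26b (0.19) and Mir26a-2 (-0.28) lie inside the main band, and Mir26a-1 (-4.49) is the lowest point.

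In counts of reads placed at a single position, the copies of Mir26a exchanged their order between the hearts. Exact reads within the run that both copies share are left out, so these counts do not give the output of miR-26a-5p. In replicate 1 Mir26a-1 was 1.67-fold above Mir26a-2, a log2 ratio of 0.74 with an exact 95% interval from 0.56 to 0.92. In replicate 2 Mir26a-2 was 11.2-fold above Mir26a-1, a log2 ratio of -3.48 with an interval from -4.09 to -2.96. Mir26a-1 made up 62.5% of the Mir26a counts in replicate 1 (59.5 to 65.4) and 8.11% in replicate 2 (5.54 to 11.4). Summed over both copies, Mir26a had 1069 counts (251 CPM) in replicate 1 and 370 counts (80.7 CPM) in replicate 2, a log2 ratio of -1.57 (interval -1.74 to -1.40).

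Other miRNAs with numbered gene copies give a scale for this change. The tables hold 53 such sets with 115 genes, and in 20 sets a pair of copies had counts that summed to at least 20 for each copy. The log2 ratio of the copies changed by -4.22 from replicate 1 to replicate 2 for Mir26a. In the other 19 pairs the absolute change ran from 0.0048 to 1.79, with a median of 0.28. The largest of those were Mir103-1 over Mir103-2 (-1.79, with 24 and 6 counts for Mir103-1) and Mir29b-1 over Mir29b-2 (-1.73, with 9 and 31 counts for Mir29b-2). Mir103-1 also lies in a family with paralogous hosts, the pantothenate kinase genes. The order of the copies turned in 2 pairs, Mir26a and Mir365, and of these the intervals lay on opposite sides of 0 for Mir26a alone. Mir103, Mir29b and Mir365 are named here after their values were seen. These counts are a description, and no test of the Mir26a pair against the other pairs was made. In summed level Mir26a ranked 12th of the 53 sets, at 166 ± 120 CPM. Reads placed at more than 1 position are left out of these sums, so the order is one of gene counts and not of miRNA levels. The leading 4 sets were Mirlet7f (5257 ± 848 CPM), Mir92 (2040 ± 185), Mir181b (1520 ± 122) and Mirlet7c (1401 ± 52.6), all with a smaller SD relative to their mean.

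**Figure D5:**
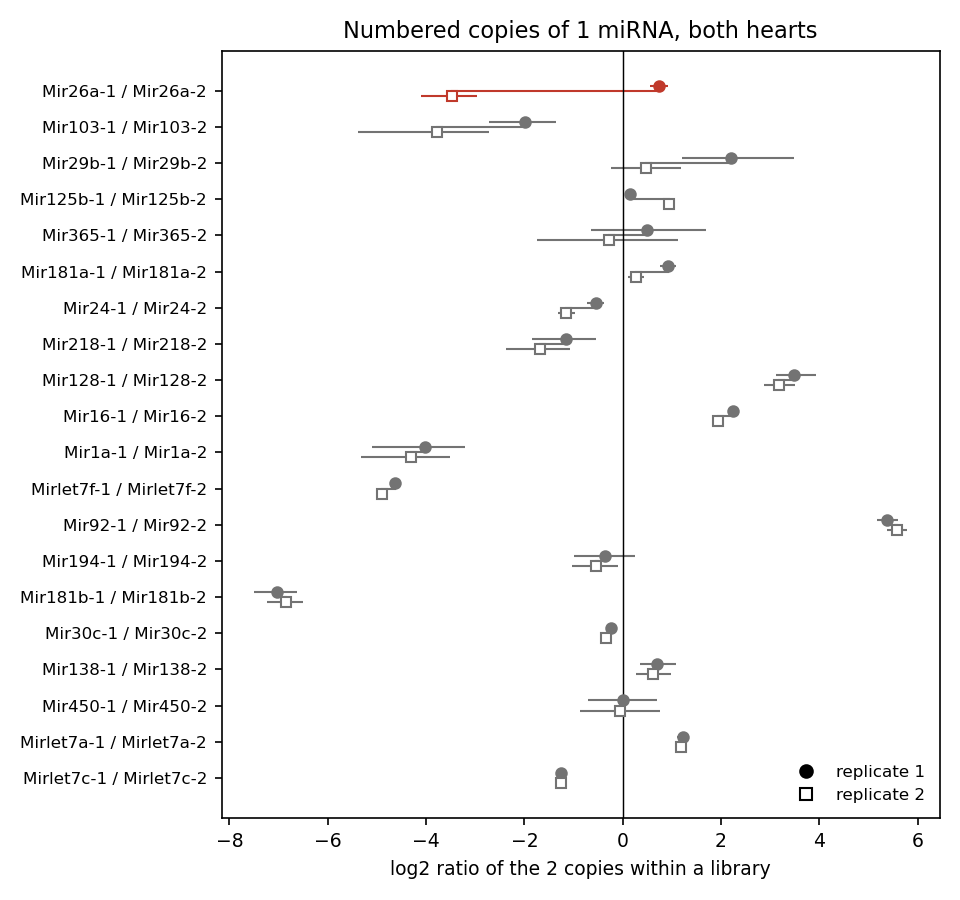
Log2 ratio of the counts of 2 gene copies of 1 miRNA within each library, for the 20 pairs in which each copy's counts sum to at least 20, ordered by how much the ratio changed; filled circles are replicate 1, open squares replicate 2 and bars exact 95% binomial intervals. Mir26a-1 over Mir26a-2 (top, red) goes from 0.74 to -3.48, and the other pairs change by at most 1.79. Reads placed at more than 1 position are not counted.

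Other miRNA families lie in introns of paralogous hosts, and a list of 12 such genes outside the miR-26 family was read beside it. In it 2 genes were higher in replicate 2, 5 were higher in replicate 1 and 5 did not pass, with a median log2 ratio of -0.19. Over all tested genes 26.1% were higher in replicate 2 and 29.1% in replicate 1, with a median of -0.02, so the share of the list that passed is near the background of 55.2%. Mir26b was the most abundant gene of the list with the family included. Mir499, hosted by Myh7b, a myosin heavy chain gene, followed at 4784 ± 931 CPM (log2 ratio -0.33). Mir107, in the pantothenate kinase gene Pank1, stood at 3033 ± 1421 CPM (-0.93). The numbered copies Mir103-1 and Mir103-2, of the same family as Mir107, had 3.47 ± 3.06 and 21.1 ± 2.37 CPM. Reads placed at more than 1 position are not counted, so these values do not give the level of miR-103 against miR-107. The same limit holds for the numbered copies Mir128-1, Mir128-2, Mir218-1 and Mir218-2 of the list.

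Further miRNAs described to repress Ezh2 are Mir214, Mir101a, Mir101b, Mir138-1 and Mir138-2. Of these 5, 1 was higher in replicate 2, 2 were higher in replicate 1 and 2 did not pass, with a median log2 ratio of -0.04, again near the 55.2% of all tested genes that passed. Mir26b exceeded all of them in mean CPM. Mir138-1 and Mir138-2 are numbered copies, and reads placed at more than 1 position are not counted. Their counts therefore do not give the level of miR-138 against miR-26b. Mir214, hosted by the Dnm3 antisense transcript and known from mesenchymal cells, came nearest at 4881 ± 378 CPM (0.22), followed by Mir101b at 216 ± 116 CPM (-1.09). The miR-15 family is described to restrain the cell cycle of heart muscle after birth. Of its 7 tested members 6 were higher in replicate 2 and 1 was higher in replicate 1, with a median log2 ratio of 0.71, against 26.1% and 29.1% of all tested genes and a median of -0.02. The remaining gene, Mir195b, had 0 counts in both hearts. Its leading genes were Mir322 (12426 ± 1089 CPM, log2 ratio -0.11), Mir195a (4475 ± 4315, 2.47) and Mir15b (2962 ± 914, 0.71), each below Mir26b in mean CPM. Mir16-1 and Mir16-2 of this family are numbered copies too, so their counts do not give the level of miR-16.

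The libraries held 4260561 and 4583025 counts on named genes. The label heart was checked against the heart muscle miRNAs Mir499, Mir208a and Mir208b, which stood at 4784, 2162 and 1144 CPM on average. The other 4 genes of that marker list, which have numbered copies, were counted low: Mir1a-2 at 48.4, Mir133a-1 at 5.18, Mir1a-1 at 2.60 and Mir133a-2 at 1.14 CPM. Their counts leave out reads placed at more than 1 position and do not give the levels of miR-1a and miR-133a. The sum of the 7 genes rests almost wholly on Mir499, Mir208a and Mir208b. Summed marker levels moved between the hearts: 7 cardiac muscle genes went from 9699 CPM in replicate 1 to 6596 CPM in replicate 2 (4 of 6 tested higher in replicate 1, 1 higher in replicate 2), and the endothelial Mir126a from 86321 to 137860 CPM. The 2 smooth muscle genes went from 53735 to 35952 CPM (1 of 2 higher in replicate 1), the 3 erythroid genes from 549.7 to 1048 CPM (3 of 3 higher in replicate 2) and the 4 white blood cell genes from 2295 to 2447 CPM (2 of 4 higher in replicate 2). Of 6 neuronal genes 5 were at 0 in both hearts and Mir9-3 had 0 and 2 counts, while the liver gene Mir122 went from 76.3 to 141 CPM. The calls among markers stand beside the 55.2% of all tested genes that passed. Apart from the neuronal genes, these sums changed by less than 2-fold, but single markers changed by more. The erythroid Mir144 had a log2 ratio of 2.64 and Mir451a one of 1.25, while Mir486 had one of 0.15. Among the cardiac muscle genes, Mir208a had a log2 ratio of -1.05 and Mir133a-1 one of -1.46, while Mir1a-2 had one of 0.37. The part of the markers in the differences of the Mir26 genes was not tested.

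No read fell on the strand opposite to any of the 3 genes in either library, which allows up to 3 reads each. Without regard to strand the counts of the 3 genes were the same as on the gene strand.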

How the data were processed

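MicroRNA-seq of 2 hearts was analysed. Per the file headers, the authors made 1 table per library from reads on mm10 with GENCODE M21, and the deposited values are raw read counts per miRNA gene, not normalized, in 3 columns (both strands, gene strand, opposite strand). For the aligner and the counter, the sources used here name none. Multimapping reads have a category row of their own and count for no gene, so genes with a shared mature arm are counted only in part. The 4 category rows (55.1% to 60.5% of the reads) were left out of library sizes.

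All 2202 gene IDs matched M21 and the gene-strand column was used. CPM used counts on named genes (4260561 and 4583025). Ratios are replicate 2 over replicate 1 with edgeR 4.0.16 TMM factors and a prior count of 0.5. Genes whose counts summed to at least 20 entered an exact two-sided binomial test with Benjamini-Hochberg adjustment at 0.05 over all of them. The procedure was also tested on simulated counts drawn with counting error only, so that check does not cover variation between animals or libraries. Intervals are 95% (Clopper-Pearson for shares and ratios, exact Poisson for counts) and cover no more than counting error, as the labels describe no molecular identifiers. The p-values measure how these libraries differ, which may be technical in part. Sequences came from RefSeq (GRCm38.p6, all 3 hairpins at the M21 coordinates). Tests ran in Python 3.11.15 with scipy 1.17.1, scaling in R 4.3.3 with DESeq2 1.42.0 as the alternative.

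The members and the gene lists were chosen with earlier results of these data known. Named genes were the members, 2 neighbours on each side in mean CPM, the 3 nearest in log2 ratio among genes with 100 or more counts, the 4 leading sets of numbered copies and up to 3 leading genes of each list. Alternatives were the strand column, denominators, scalings, count minimums, prior counts and leaving out each heart.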

Additional observations from a re-analysis of the deposited data

Results flagged for a closer look

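Reads outside the gene counts lay above the limit of 3 counts. Reads placed at more than 1 position numbered 4193785 in replicate 1 and 3872896 in replicate 2. Those outside annotated features numbered 507613 and 499225. How many of either came from the Mir26 genes was not tested. A group of 2 hearts is too small to check whether a sample stands apart.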

How the results depend on the processing

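No paired analysis was possible because the labels hold a single group. Of 57 values under alternatives other than leaving out a heart, 44 kept their call or stayed within their error, 12 moved and 1 lost its call; none changed sign. The strand column and the prior count hardly touch the ratios between the members, whose counts are the same in both columns, and the level of Mir26a-1 has an SD of 106 CPM that no setting exceeded, so the 44 overstate stability. The lost call was Mir26a-2 with DESeq2 size factors (log2 ratio -0.24, adjusted p 0.0517), by the scaling itself; over 6 alternatives its log2 ratio ran from -0.34 to -0.24, that of Mir26a-1 from -4.56 to -4.43 and that of Mir26b from 0.12 to 0.23. Levels moved with the denominator, by construction: without regard to strand, over all reads and without Mir378a, the most abundant gene, Mir26b had 24169, 7180 and 20011 CPM, Mir26a-2 119, 35.3 and 99.3 CPM, Mir26a-1 112, 32.4 and 96.6 CPM (against 81.7), and the family 2.44%, 0.725% and 2.02%. Without regard to strand Mir26b ranked 11 and Mir26a-2 158. Genes past the test and 2-fold apart numbered 40 against 207. With 1 heart left out, ranks ran from 143 to 293 for Mir26a-1, 170 to 174 for Mir26a-2 and 13 to 14 for Mir26b, and the level of Mir26a-1 was 156.8 CPM without replicate 2 and 6.55 CPM without replicate 1. Depth limits Mir26a-1 most, at 30 counts in replicate 2.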

Other observations

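The nearest gene to Mir26a-2 in the tables was Mir546, 2.83 kb away on chromosome 10, with 3 counts in replicate 1 and 0 in replicate 2. The nearest to Mir26b was Mir1928, 188 kb away on chromosome 1, and the nearest to Mir26a-1 was Gm22008, 1032 kb away on chromosome 9, both with 0 counts in both hearts. The 15 other tested genes of chromosome 9 had a median log2 ratio of -0.05 between the hearts, with values from -1.98 to 0.71, 4 of them higher in replicate 1 and 3 higher in replicate 2, a share near the 55.2% of all tested genes that passed. Mir26a-1, at -4.49, lay below that range. The 10 other tested genes of chromosome 10 ran from -0.30 to 1.47, which holds the -0.28 of Mir26a-2, and the 26 of chromosome 1 from -1.40 to 1.69, which holds the 0.19 of Mir26b.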
